A study of Mus musculus with 12 samples.

Results

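Neurogranin (Nrgn), the calmodulin genes Calm2 and Calm3, the calmodulin-dependent kinase genes Camk2a, Camk2b and Camk4, and the calcineurin subunit genes Ppp3ca and Ppp3r1 make up a set of 8 plasticity genes that was followed probe by probe through the hippocampus of 12 lupus-model and control mice. The members were taken by gene name from the non-control probes of the arrays, where they account for 15 of 39429 probes. The mice were adult females of about 12 weeks, killed at diestrus, and fall into 3 phenotypes of 4 mice. MRL/lpr mice carry the Fas mutation and develop lupus-like disease, and Fn14ko mice (Fn14koMRL in the labels) are littermates on that background, bred at the same site and described as lacking Tnfrsf12a, the gene of the receptor Fn14 for the cytokine TWEAK. MRL/+ mice (MRL/MpJ in the labels) are the non-lupus background strain and came from a commercial breeder. The Fn14ko animals are called mice labelled Fn14ko here, because the Tnfrsf12a probe was well above background in 4 of 4 of them, and where that probe lies relative to the deleted part is not given in the sources used here.

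These genes belong to one signalling system of the dendritic spine. Neurogranin is a small postsynaptic protein that holds calmodulin when calcium is low and gives it up when calcium rises. Calcium-loaded calmodulin then activates CaMKII, the kinase required for long-term potentiation, and calcineurin, the phosphatase that opposes it in long-term depression, while CaMKIV carries the signal to transcription in the nucleus. In the forebrain, neurogranin and the alpha subunit of CaMKII are typical of excitatory principal neurons.

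Each of 6 arrays took 2 mice of the same phenotype, 1 in Cy3 (replicates 1 and 3) and 1 in Cy5 (replicates 2 and 4), and each phenotype had a slide to itself, so that slide and phenotype cannot be told apart. The array of MRL/lpr mice 3 and 4 was weak. Its median spot foreground was 1.93 and 1.73 times the local background, and its median correlation with the mice of other arrays was 0.455 and 0.280 across probes, compared with 0.877 to 0.966 for the other 10 mice. Results that rest on these 2 mice are given with and without them. The arrays of MRL/+ were not faultless either. Both failed the grid check of the extraction software, as the weak array did, and their spike-in controls correlated with the expected amounts at 0.317 and 0.265, compared with 0.0253 on the weak array and 0.710 to 0.766 on the other 3. In the Cy5 mice of MRL/+ 29.6% and 31.8% of spots were well above background, and in its Cy3 mice 67.5% and 66.2%. No MRL/+ mouse lies outside these arrays, and their part in the differences from MRL/+ was not tested. A probe was kept when a spot of it reached 2 times the background and carried no outlier flag in all 12 mice, and its level is relative to the median kept spot of the same channel (level 1). This left 10201 probes, among them 9 of the 15 member probes, which cover 7 genes. When the weak array was left out, 23488 probes were kept, 14 member probes among them, and all 8 genes were covered. One Camk2a probe (A_55_P2169980) was well above background in 0 of 12 mice and is not described further. Levels are comparable between mice for 1 probe, never between probes.

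Several genes are read by more than 1 probe, and these probes did not always give the same picture, so it matters which bases each one reads. The first 30 bases of the 60-base probes for Nrgn, for both calmodulin genes and for Camk2b are shown 5′ to 3′ as the files give them, with no base singled out by capitals. Those of the other genes are left out. The positions are the mm9 coordinates of the whole probe as the files give them, and the files name no exon or UTR.
Nrgn A_55_P2172470, chr9:37352694-37352753, minus strand: agccaagtccgtgccctttttagctcttca
Calm2 A_55_P2129232, chr17:87832770-87832829, minus strand: gctcatggcacaacttgcctcaaatccatt
Calm2 A_55_P2129234, chr17:87832973-87833032, minus strand: gttgttgttgaagtgtggagctgtaactct
Calm3 A_52_P140356, chr7:17500734-17500793, minus strand: tgtgttcagttcaagctgtgaagaaaaata
Calm3 A_55_P2021841, chr7:17502158-17502217, minus strand: gttctagcaaacagcaattgattgactgag
Camk2b A_55_P2109377, chr11:5869675-5869734, minus strand: tttctgagccttgtaggtgtacaaaactta
Camk2b A_55_P2150578, chr11:5872636-5872695, minus strand: cctgaagctctgggcaacctggtcgaaggg
Calm2 and Calm3 encode the same protein, and their probes share no run of bases longer than 15 over the 4 pairs of a Calm2 with a Calm3 probe. Over all 105 pairs of member probes the longest shared run was also 15. The Ppp3ca probe lies at chr3:136598682-136598741 and the Ppp3r1 probe at chr11:17100263-17100322, both on the plus strand.

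On the spots kept in all mice, Nrgn was higher in MRL/+ than in both other phenotypes. In MRL/+ mice 1 to 4 its level was 26.4, 70.4, 44.1 and 75.9. The mice labelled Fn14ko had levels of 13.7, 20.7, 20.7 and 15.9, and MRL/lpr mice had 14.4, 17.7, 6.49 and 4.12. The lowest MRL/+ mouse was above the highest mouse of either other phenotype, whereas MRL/lpr and Fn14ko overlapped, and the 2 lowest of the 12 mice were those of the weak array. The average expression level (AVE) was 54.2 ± 23.1 (SD, n = 4) in MRL/+, 17.7 ± 3.54 in Fn14ko and 10.7 ± 6.43 in MRL/lpr. The expression ratio of MRL/lpr to MRL/+ was therefore a 5.07-fold lower level, and that of Fn14ko to MRL/+ a 3.06-fold lower one. The genes were proposed with these contrasts in view, so their strain differences are given as descriptions, with the standard error of the fit and without p-values. That standard error treats the 2 mice of an array as independent. With the array as a random block it was larger for every kept member probe, at 0.74 instead of 0.48 for Nrgn.

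On the log2 scale, the fitted Nrgn difference was -2.46 ± 0.48 (SE) for MRL/lpr relative to MRL/+, -1.52 ± 0.48 for Fn14ko relative to MRL/+ and -0.94 ± 0.48 for MRL/lpr relative to Fn14ko. Without the weak array, on the same spots, these became -1.65 ± 0.29, -1.52 ± 0.24 and -0.13 ± 0.29. MRL/lpr thus came to lie beside Fn14ko once its 2 weak mice were set aside, at 16.1 ± 2.39 (SD, n = 2), and both stayed below MRL/+. Both also lay below MRL/+ within each dye. With all mice, the difference of MRL/lpr from MRL/+ was -1.82 in Cy3 and -3.10 in Cy5. That of Fn14ko from MRL/+ was -1.02 and -2.01. These fits include the weak mice. With the weak array left out, on the spots kept in the other mice, MRL/lpr is 1 mouse per dye. The differences from MRL/+ were then -1.30 and -1.67 for MRL/lpr and -0.97 and -1.56 for Fn14ko. MRL/lpr differed from Fn14ko by only -0.32 in Cy3 and -0.11 in Cy5. Within MRL/+, the 2 Cy5 mice were higher than the 2 Cy3 mice on the spots kept in all mice. When dim spots were kept, the Cy5 mice were the lower ones (383 and 529 compared with 636 and 1128). The Nrgn difference of MRL/lpr from MRL/+ ranged from -3.0 to -1.48 over the other settings that kept both dyes. For Fn14ko relative to MRL/+, the difference ranged from -1.80 to -0.60 over the same settings, and when dim spots were kept it was -0.60 ± 0.92 with overlapping groups. With all mice, the Nrgn difference of MRL/lpr from MRL/+ was past the adjusted p of 0.05 in limma's fit across all probes, and that of Fn14ko from MRL/+ was not. The call of MRL/lpr relative to MRL/+ was lost when the array entered as a random block, when dim spots were kept and within a single dye. It was also lost when MRL/+ replicate 2 (difference -2.34) or replicate 4 (-2.30) was left out.

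**Figure D1:**
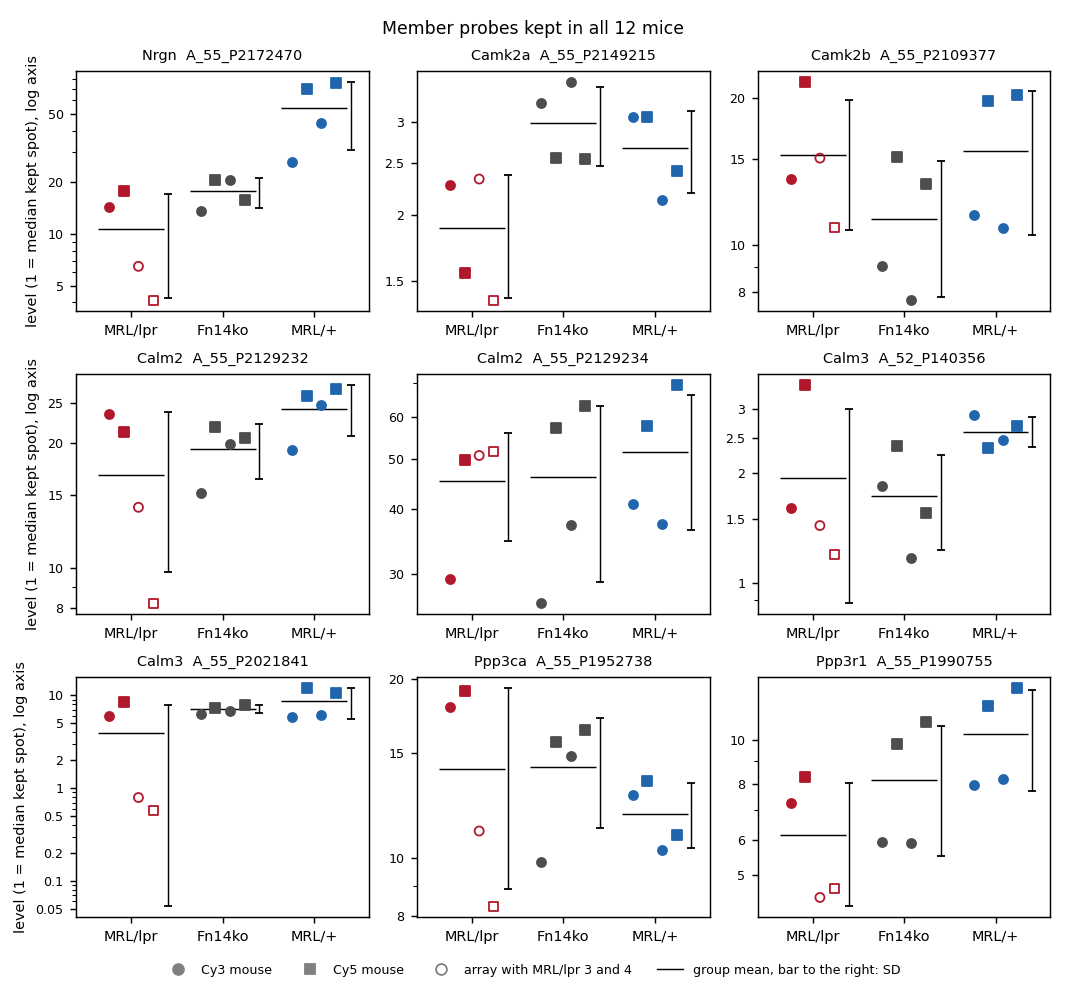
Level of each of the 9 member probes kept in all 12 mice, 1 panel per probe, on a log axis relative to the median kept spot of the channel. Circles are Cy3 mice, squares Cy5 mice, hollow symbols the 2 MRL/lpr mice of the weak array, lines the group mean of all 4 mice and bars the SD. In the Nrgn panel the 4 MRL/+ mice (26.4 to 75.9) lie above all others, and in the panel of Calm3 A_55_P2021841 the hollow symbols (0.793 and 0.570) lie far below the rest.

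Calm2, which encodes calmodulin, differed less between phenotypes than Nrgn. Calm2 probe A_55_P2129232 read 23.5, 21.3, 14.0 and 8.23 in MRL/lpr, 15.1, 21.8, 19.9 and 20.5 in Fn14ko and 19.2, 26, 24.7 and 26.9 in MRL/+. The groups overlapped throughout, and the 2 mice of the weak array were the lowest of the 12. The fitted difference of MRL/lpr from MRL/+ was -0.63 ± 0.35 (SE) with all mice and -0.10 ± 0.18 without the weak array. The second Calm2 probe, A_55_P2129234, read 29.3, 49.6, 50.7 and 51.5 in MRL/lpr, 26.3, 57.2, 37.3 and 63.1 in Fn14ko and 40.9, 57.9, 37.4 and 69.4 in MRL/+. Here the Cy5 mice were above the Cy3 mice in both Fn14ko and MRL/+, and the phenotypes overlapped, with differences of -0.17 ± 0.28, 0.03 ± 0.28 and -0.20 ± 0.28 for MRL/lpr from MRL/+, MRL/lpr from Fn14ko and Fn14ko from MRL/+. When dim spots were kept, the Cy5 mice of MRL/+ were instead below its Cy3 mice (315 and 485 compared with 983 and 957).

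Calm3 gave the clearest case of a difference carried by the weak array. Probe A_55_P2021841 read 6.08 and 8.42 in MRL/lpr mice 1 and 2 but 0.793 and 0.570 in mice 3 and 4. In Fn14ko it read 6.33, 7.41, 6.87 and 7.93, and in MRL/+ 5.91, 12.2, 6.13 and 10.7. The 2 MRL/lpr mice of the stronger array thus lay within the range of the other phenotypes. The difference of MRL/lpr from MRL/+ moved from -1.92 ± 0.75 (SE) to -0.21 ± 0.20 without the weak array, and that from Fn14ko moved from -1.70 ± 0.75 to 0.01 ± 0.20. The foreground of this probe was 5.64 and 2.29 times background in the 2 weak mice and at least 235.7 times in every other mouse. The other Calm3 probe, A_52_P140356, read 1.61, 3.50, 1.44 and 1.20 in MRL/lpr, 1.84, 2.37, 1.17 and 1.55 in Fn14ko and 2.89, 2.34, 2.47 and 2.69 in MRL/+. MRL/+ had the narrowest spread on this probe, a coefficient of variation (CV) of 9.32% compared with 54.5% in MRL/lpr and 29.0% in Fn14ko, and the groups overlapped.

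Camk2a, which encodes the alpha subunit of CaMKII, was read by probes that ranked the phenotypes differently. Its probes lie on chromosome 18, as do those of Camk4. Camk2a probe A_55_P2149215 read 2.28, 1.55, 2.34 and 1.38 in MRL/lpr, 3.25, 2.56, 3.57 and 2.55 in Fn14ko and 3.06, 3.06, 2.14 and 2.42 in MRL/+. Every MRL/lpr mouse was below every mouse labelled Fn14ko, by -0.68 ± 0.23 (SE) on the log2 scale and by -0.65 ± 0.22 without the weak array, whereas MRL/+ overlapped with both. The second Camk2a probe, A_55_P2149209, was kept only when the weak array was left out, and its levels are relative to the median spot of those 10 mice. It read 0.523 and 0.568 in MRL/lpr, 0.556, 0.514, 0.463 and 0.532 in Fn14ko and 1.66, 1.51, 1.61 and 1.70 in MRL/+. MRL/+ was above both other phenotypes in every mouse, with differences of -1.57 ± 0.17 for MRL/lpr and -1.65 ± 0.14 for Fn14ko. The negative-control spots, which match no mouse transcript, had a median level of 0.693 and 0.581 in the 2 Cy5 mice of MRL/+ and of at most 0.110 in the other 8 mice. Within Cy3, where negative controls were at most 0.0131, the same differences were -1.64 and -1.69. On the first probe, in the same 10 mice, the corresponding differences were -0.32 ± 0.17 and 0.41 ± 0.14, so that the 2 Camk2a probes differed in the sign of the Fn14ko difference.

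Camk2b encodes the beta subunit, which ties the CaMKII holoenzyme to actin. Its probe A_55_P2109377 read 13.6, 21.6, 15.1 and 10.9 in MRL/lpr, 9.08, 15.2, 7.71 and 13.4 in Fn14ko and 11.5, 19.7, 10.9 and 20.3 in MRL/+. The Cy5 mice were above the Cy3 mice in Fn14ko and in MRL/+, and the phenotypes overlapped. When dim spots were kept, the dye order turned in MRL/+ (107 and 141 in Cy5, 277 and 278 in Cy3). The difference of MRL/lpr from Fn14ko was 0.44 ± 0.28 (SE) with all mice and 0.65 ± 0.16 without the weak array. The other probe, A_55_P2150578, read 2.90 and 2.26 in MRL/lpr, 1.19, 1.78, 1.6 and 1.46 in Fn14ko and 2.19, 3.24, 3.08 and 2.88 in MRL/+, over the 10 mice outside the weak array. The mice labelled Fn14ko were the lowest group, each below every mouse of the other phenotypes, with a difference of -0.92 ± 0.18 from MRL/+ that was -0.91 within Cy3 and -0.92 within Cy5. MRL/lpr was 0.78 ± 0.22 above Fn14ko and differed from MRL/+ by -0.14 ± 0.22.

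Camk4 encodes CaMKIV, the nuclear kinase that phosphorylates CREB. No probe of it was kept in all 12 mice, since the foreground in the 2 weak mice was 1.43 to 2.20 times the background on its 3 probes. Outside the weak array, probe A_55_P2097206 read 2.88 and 2.97 in MRL/lpr, 6.41, 9.76, 12 and 11.3 in Fn14ko and 8.03, 8.96, 7.90 and 7.81 in MRL/+. Both MRL/lpr mice were below all 8 others, by -1.48 ± 0.23 (SE) relative to MRL/+ and -1.71 ± 0.23 relative to Fn14ko, and the phenotypes Fn14ko and MRL/+ overlapped. The differences of MRL/lpr were nearly the same in each dye, at -1.47 and -1.49 from MRL/+ and -1.61 and -1.82 from Fn14ko in Cy3 and Cy5. Only 1 array of MRL/lpr stands behind these values.

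The other Camk4 probes were dim, and MRL/lpr was again below every mouse labelled Fn14ko on both, while their relation to MRL/+ varied. Probe A_66_P108791 read 0.596 and 0.416 in MRL/lpr, 0.671, 0.842, 0.666 and 0.713 in Fn14ko and 0.853, 0.485, 0.850 and 0.445 in MRL/+. In MRL/+ the 2 Cy5 mice lay below the negative-control level of their own channels (0.693 and 0.581), and the 2 Cy3 mice were the highest of the 10. Probe A_55_P2096324 read 0.0754 and 0.0871 in MRL/lpr, 0.104, 0.165, 0.109 and 0.205 in Fn14ko and 0.226, 0.723, 0.237 and 0.640 in MRL/+. MRL/+ was the highest group on it, but in its 2 Cy5 mice the reading was close to the negative controls. The probe was well above background in 7 of 12 mice. The negative controls stood at 0.0529 in the Cy5 mouse of MRL/lpr, which read 0.0871. They stood at 0.0644 and 0.110 in the Cy5 mice of Fn14ko, which read 0.165 and 0.205. MRL/lpr differed from Fn14ko by -0.79 ± 0.34 (SE) on this probe and by -0.53 ± 0.27 on A_66_P108791. Within Cy3 the difference of MRL/lpr from MRL/+ was -1.62 on this probe and -0.51 on A_66_P108791. The part of the negative-control level in these values was not tested.

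**Figure D2:**
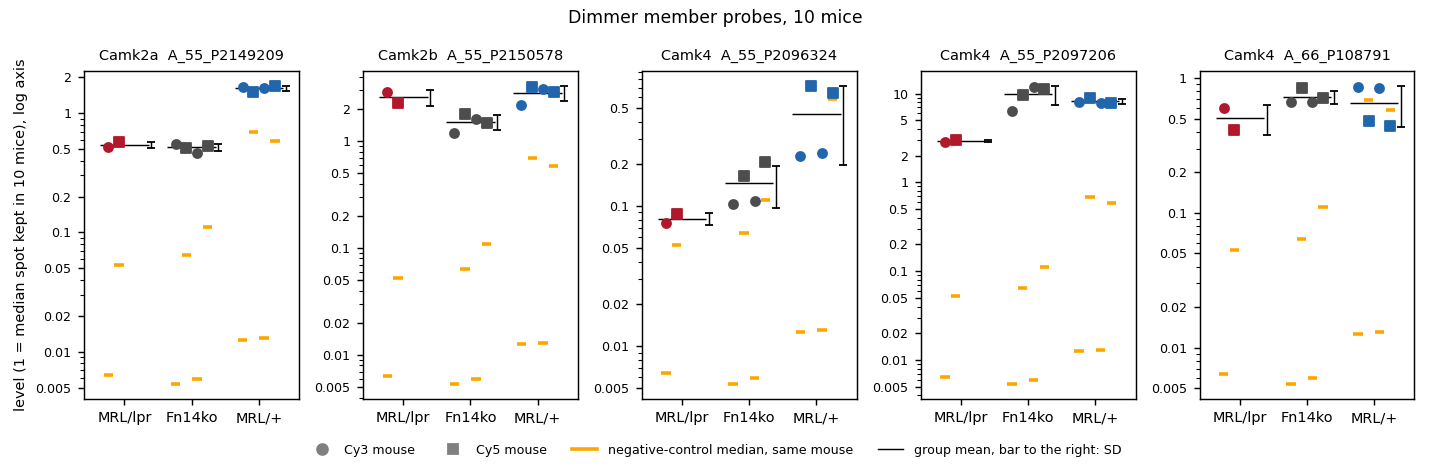
Level of the 5 member probes kept only outside the weak array, for 10 mice, on a log axis relative to the median spot kept in those mice. Circles are Cy3 and squares Cy5 mice, black lines the group mean, bars the SD and orange ticks the median of the negative-control spots in the same mouse. The Camk2a probe separates MRL/+ (1.51 to 1.70) from the rest, Camk4 A_55_P2097206 separates MRL/lpr (2.88 and 2.97), and the symbols of the other Camk4 probes meet the orange ticks in the Cy5 mice of MRL/+.

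Calcineurin is built of a catalytic and a regulatory subunit, encoded in neurons chiefly by Ppp3ca and Ppp3r1. Ppp3ca read 17.9, 19.1, 11.1 and 8.31 in MRL/lpr, 9.86, 15.7, 14.8 and 16.4 in Fn14ko and 12.8, 13.5, 10.3 and 10.9 in MRL/+. The MRL/lpr mice 1 and 2 were the highest of the 12 and mouse 4 was the lowest. The difference of MRL/lpr from MRL/+ was 0.17 ± 0.32 (SE) with all mice and 0.65 ± 0.21 without the weak array, and in the 10-mouse spot set MRL/lpr was above MRL/+ by 0.81 ± 0.23 with no overlap. When dim spots were kept, MRL/lpr mice 1 and 2 (289 and 279) lay within the range of MRL/+ (73.5 to 307). The difference with all mice was then -0.36 ± 0.83. Ppp3r1 read 7.24, 8.26, 4.46 and 4.66 in MRL/lpr, 5.93, 9.83, 5.89 and 11 in Fn14ko and 7.95, 11.9, 8.2 and 13.1 in MRL/+. The Cy5 mice exceeded the Cy3 mice in Fn14ko and MRL/+, but in MRL/+ not when dim spots were kept (65.0 and 91.5 compared with 191 and 210). Again the weak array held the lowest values, and the difference of MRL/lpr from MRL/+ went from -0.76 ± 0.28 to -0.38 ± 0.18 when that array was left out. Leaving out the weak array thus moved the catalytic subunit up and the regulatory subunit closer to MRL/+.

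**Figure D3:**
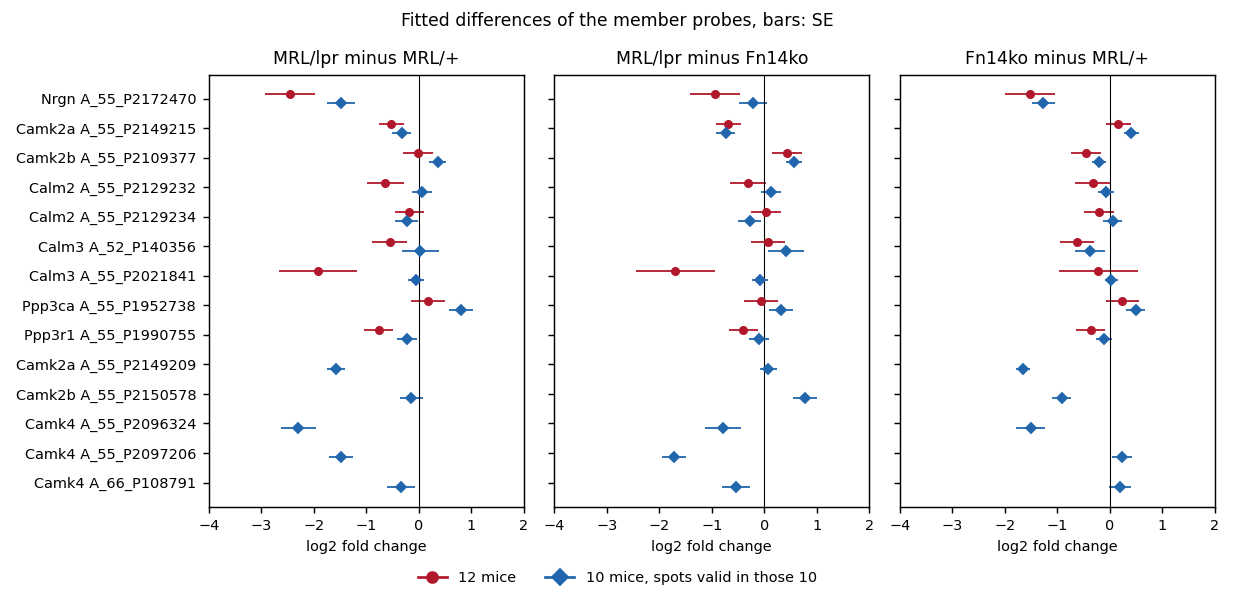
Fitted log2 fold changes of the member probes in the 3 comparisons, with bars for the SE. Red circles use 12 mice and the spots kept in all of them, blue diamonds use 10 mice and the spots kept in those. Nrgn lies left of 0 in both comparisons with MRL/+ (-2.46 and -1.52 with 12 mice), and Calm3 A_55_P2021841 moves from -1.92 to -0.05 in the first comparison when the weak array is left out.

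Counted together, few of the member probes passed the threshold with all mice. For MRL/lpr relative to MRL/+, 1 of 9 member probes (Nrgn) passed an adjusted p of 0.05 in limma's test, where 9.35% of all 10201 probes did, and 4 of 9 had an unadjusted p under 0.05. For MRL/lpr relative to Fn14ko, 0 of 9 passed beside 3.56% of all probes, with 2 at an unadjusted p under 0.05, and for Fn14ko relative to MRL/+, 0 of 9 passed beside 0.745%, with 1 at an unadjusted p under 0.05. The median member difference was -0.55, -0.31 and -0.33 in these comparisons, and the median of all probes tested was -0.03, 0.01 and -0.16. Outside the weak array, 5 of 14 member probes passed for MRL/lpr relative to MRL/+ (16.9% of all 23488 probes), 2 of 14 for MRL/lpr relative to Fn14ko (8.44%) and 4 of 14 for Fn14ko relative to MRL/+ (24.4%). The median member differences were then -0.22, -0.09 and -0.09, beside -0.14, -0.03 and -0.11 for all probes. Phenotypes did not overlap on 1 of 9 member probes in each comparison with all mice, and for all probes this held for 16.1%, 21.3% and 20.2%. Outside the weak array it was 5, 6 and 4 of 14 member probes, beside 34.3%, 36.3% and 19.5% of all probes. Because the genes were chosen from these contrasts, nothing is read from the counts. With the array as a random block 0 of 9 member probes passed in any comparison, and 9, 3 and 0 of all probes did.

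The spread of these genes within phenotypes was larger than that of all kept probes in Fn14ko and smaller in MRL/+. The median CV over the 9 kept member probes was 20.9% in Fn14ko, 25.4% in MRL/+ and 37.0% in MRL/lpr, and over all kept probes it was 16.0%, 28.4% and 52.4%. In MRL/lpr the order turned with the weak array, since without it the values were 22.9% and 12.4%, from 2 mice that shared 1 array. Levels across the 10 other mice were compared with those of Nrgn as a description. Among the other kept member probes, Pearson's r of log2 levels with Nrgn ranged from -0.466 for Ppp3ca to 0.735 for Calm2 A_55_P2129232, and it was 0.0421 for Camk2a A_55_P2149215. The genes most like Nrgn on the array were 6430548M08Rik (r = 0.988), Olfm1 (0.979), which encodes a secreted neuronal glycoprotein, and Flot2 (0.98), a lipid-raft protein. Their mean levels were 4.46, 13.4 and 8.18 in MRL/+, compared with 2.51, 8.25 and 4.96 in Fn14ko. These points share arrays, dyes and phenotypes, and no p is attached to them.

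The labelled tissue was checked with cell type markers, whose levels were summed per mouse over the 10 mice outside the weak array. Of 6 markers of excitatory hippocampal neurons, 5 were well above background in all 10 mice and Prox1 was not. The sum over the 5 markers kept was 180.2 to 220.8 in MRL/+, 110.8 to 188.9 in Fn14ko and 157.4 and 197.2 in MRL/lpr, so that MRL/+ had the highest median (199.8) but overlapped with the others, whereas its Nrgn level did not. The 6 markers of inhibitory neurons were all well above background, at summed levels of 76.8 to 95.4 in MRL/+, 76.5 to 104.2 in Fn14ko and 61.9 and 75.6 in MRL/lpr. In RNA of a whole tissue, fewer neurons and less RNA per neuron cannot be told apart.

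Summed markers of other cells and tissue separated some phenotypes and overlapped between others. The summed level of 5 choroid plexus markers was 43.4 and 141.3 in the 2 MRL/lpr mice, 2.12 to 21.4 in Fn14ko and 3.71 to 5.99 in MRL/+, with only Ttr of the 5 well above background in all 10 mice. The sum of 6 markers of the striatum was 21.9 to 63.8 in Fn14ko, 8.82 to 22.5 in MRL/+ and 6.64 and 8.54 in MRL/lpr, with Drd1, Drd2 and Adora2a not well above background in every mouse. Oligodendrocyte markers summed to 76.3 and 93.6 in MRL/lpr, 50.6 to 88.1 in Fn14ko and 43.8 to 73.8 in MRL/+. Astrocyte markers gave 26.1 and 32.6, 24.9 to 32.5 and 15.9 to 25.3, and microglia markers 15.2 and 17.5, 18.0 to 23.1 and 21.5 to 24.6, in the same order. The part of tissue makeup in the differences of the plasticity genes was not tested.

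The rest of the pathway was followed through a list of 43 genes, 32 of which had a kept probe, 36 probes in all. For MRL/lpr relative to MRL/+, 3 probes fell and 0 rose, where 9.35% of all probes were called. For MRL/lpr relative to Fn14ko 4 fell and 0 rose, beside 3.56% of all probes. For Fn14ko relative to MRL/+, 0 were called by limma beside 0.745% of all probes, and 6 of 36 had an unadjusted p under 0.05. The median difference over the list was -0.42, -0.57 and 0.10, where that of all probes was -0.03, 0.01 and -0.16. In both comparisons of MRL/lpr, the calls included 1 of 7 probes of the CaM kinase cascade, 1 of 5 of the CaMKII subunits and inhibitors and 1 of 4 of the calcineurin regulators and anchors. The protein phosphatase 1 branch had 1 of 6 probes called for MRL/lpr relative to Fn14ko. In the other groups with a kept probe, namely calmodulin-binding IQ proteins, calcineurin subunits, kinases that phosphorylate neurogranin, calmodulin-regulated enzymes and transcription targets, 0 of 14 probes were called by limma in any of the 3 comparisons, and 14 of their 42 tests had an unadjusted p under 0.05.

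Camkk2 encodes a kinase that activates CaMKIV. Its probe A_55_P2329923 read 3.72, 3.95, 0.878 and 0.977 in MRL/lpr, 5.18, 9.25, 8.29 and 8.99 in Fn14ko and 9.45, 17.8, 9.61 and 14.3 in MRL/+, with no overlap between any pair of phenotypes. Camkk2 fell in MRL/lpr by 2.71 on the log2 scale relative to MRL/+ (SE 0.49, limma adjusted p = 0.010) and by 2.04 relative to Fn14ko (SE 0.49, limma adjusted p = 0.046), and without the weak array, over the spots kept in 10 mice, by 1.52 and 1.10 (limma adjusted p = 0.00084 and 0.0077). A second Camkk2 probe kept in those 10 mice, A_55_P2125684, read 0.469 and 0.403 in MRL/lpr, 0.939, 1.20, 1.21 and 1.26 in Fn14ko and 3.10, 2.94, 3.53 and 2.62 in MRL/+. Camkk2 and the bright Camk4 probe were thus both low in the 2 MRL/lpr mice of the stronger array.

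Rcan2, a regulator that binds calcineurin, and Camk2n1, an inhibitor protein of CaMKII, fell in MRL/lpr too. Rcan2 read 2.32, 2.87, 0.704 and 0.673 in MRL/lpr, 6.54, 5.79, 7.13 and 5.34 in Fn14ko and 6.09, 3.62, 6.47 and 4.08 in MRL/+, so that MRL/lpr lay below every other mouse. It fell by 1.88 relative to MRL/+ (SE 0.46, limma adjusted p = 0.031) and by 2.21 relative to Fn14ko (SE 0.46, limma adjusted p = 0.028). Camk2n1 read 1.81, 3.08, 0.456 and 0.672 in MRL/lpr, 5.79, 8.46, 5.23 and 10.8 in Fn14ko and 3.49, 3.00, 4.72 and 6.35 in MRL/+. MRL/lpr mouse 2 lay above MRL/+ mouse 2, so that these 2 phenotypes overlapped. Camk2n1 fell by 1.88 relative to MRL/+ (SE 0.51, limma adjusted p = 0.044) and by 2.67 relative to Fn14ko (SE 0.51, limma adjusted p = 0.023). Without the weak array, over the spots kept in 10 mice, the falls relative to Fn14ko were 1.34 for Rcan2 and 1.71 for Camk2n1, both past the threshold, while the differences from MRL/+ of -0.76 and -0.67 were not (limma adjusted p = 0.082 and 0.22). On the spots kept in all 12 mice, leaving out the same array gave differences from MRL/+ of -0.93 for Rcan2 (limma adjusted p = 0.014) and -0.83 for Camk2n1 (limma adjusted p = 0.071).

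Ppp1r1b, which encodes the phosphatase 1 inhibitor DARPP-32 and is also 1 of the 6 striatum markers above, was named after its values were seen. It read 1.76, 1.05, 1.39 and 1.70 in MRL/lpr, 4.15, 4.99, 9.71 and 3.65 in Fn14ko and 4.31, 1.43, 2.86 and 1.21 in MRL/+. MRL/lpr differed from Fn14ko by -1.85 ± 0.35 (SE) and from MRL/+ by -0.57 ± 0.35, and Fn14ko differed from MRL/+ by 1.28 ± 0.35. Every one of these 7 pathway calls was lost with the array as a random block, where limma's adjusted p ranged from 0.10 to 0.28. Quantile normalization lost 5 of the 7, all but Camkk2 relative to MRL/+ and Ppp1r1b. When dim spots were kept, the calls relative to MRL/+ were lost, and those relative to Fn14ko were kept. For Camkk2, Rcan2 and Camk2n1 relative to MRL/+, limma's adjusted p was then 0.10, 0.22 and 0.24. When each of the 12 mice was left out in turn, the call of Camkk2 relative to MRL/+ was kept 12 times and relative to Fn14ko 2 times. The calls of Rcan2 were kept 3 and 3 times, of Camk2n1 2 and 7 times, and of Ppp1r1b, relative to Fn14ko, 8 times.

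**Figure D4:**
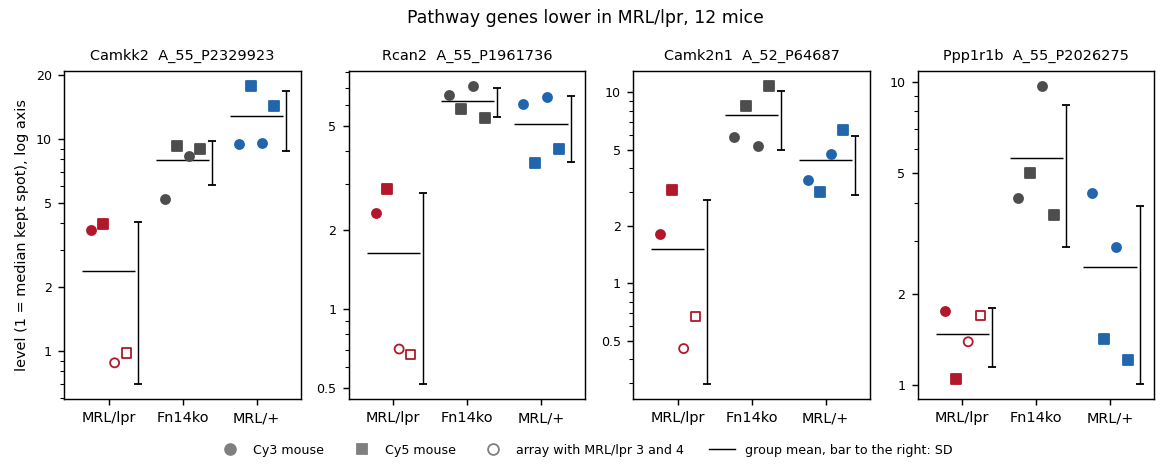
Level of the 4 pathway genes called in at least 1 comparison of MRL/lpr, for 12 mice, on a log axis relative to the median kept spot of the channel. Circles are Cy3 and squares Cy5 mice, hollow symbols the weak array, lines the mean of 4 mice and bars the SD. Camkk2, Rcan2 and Camk2n1 are lowest in the hollow symbols of MRL/lpr (0.456 to 0.977), and Ppp1r1b is highest in Fn14ko (3.65 to 9.71), overlapping with MRL/+.

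The paralogs of the CaMKII and calcineurin members had 0 of 4 probes called by limma with all mice, and 4 of their 12 tests had an unadjusted p under 0.05. Camk2g, the gamma subunit, differed between MRL/lpr and MRL/+ by -0.28 ± 0.36 (SE), and Camk2d, the delta subunit, by -1.37 ± 0.48 on A_52_P428745 and -0.41 ± 0.63 on A_55_P1978830. The catalytic calcineurin paralog Ppp3cb differed by 0.38 ± 0.38, and Ppp3cc had no probe kept in 12 mice. Between MRL/lpr and Fn14ko, Camk2g differed by -1.13 ± 0.36 and Camk2d A_52_P428745 by -1.08 ± 0.48. Between Fn14ko and MRL/+, Camk2g differed by 0.85 ± 0.36. In the 10 mice outside the weak array, where MRL/lpr is 2 mice of 1 array, Ppp3cb differed between MRL/lpr and MRL/+ by 1.26 ± 0.30 and Ppp3cc by -0.21 ± 0.19, so that Ppp3cb was on the same side as Ppp3ca. The 3 Camk2d probes differed by -1.56 ± 0.32 on A_55_P1978830, -0.98 ± 0.59 on A_52_P428745 and -1.36 ± 0.47 on A_52_P188261. The fits over 12 and over 10 mice without a random block treat the 2 mice of an array as independent. Values within an array were correlated, however (0.706 in the fit over 12 mice with the array as a random block). The SEs and p-values of these fits are therefore too small in every comparison, and over 10 mice MRL/lpr has only 1 array. Over those 10 mice, 52 probes of 41 pathway genes were tested, and 2 rose and 4 fell for MRL/lpr relative to MRL/+ (16.9% of all probes were called), 0 rose and 7 fell for MRL/lpr relative to Fn14ko (8.44%), and 12 rose and 3 fell for Fn14ko relative to MRL/+ (24.4%). Nothing particular to the list is read from these counts.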

How the data were processed

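Hippocampal RNA of 12 mice was hybridized to 6 two-colour Agilent arrays. The authors scanned the arrays and extracted them with Agilent Feature Extraction, and the deposited files give the foreground and background intensity of every spot in either dye, linear and without scaling between channels. Local background was subtracted, spots that fell below 2 times background or were flagged as outliers in any mouse were dropped, channels were scaled to the median of their kept spots, and spots of a probe were averaged. Log2 values were fitted with limma 3.58.1 in R 4.3.3 (lmFit, eBayes with trend), with phenotype and dye in the model, all 12 mice and Benjamini-Hochberg adjustment over all probes tested (threshold 0.05). The script was tested on simulated data. Statmod 1.5.0 served random blocks, and Python 3.11.15 with pandas 2.3.3 and matplotlib 3.10.9 the tables and figures.

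The members and lists were chosen with earlier results of these data known. Named are all member probes, per comparison and direction up to 3 called pathway genes of largest change, the paralogs Camk2d, Camk2g, Ppp3cb and Ppp3cc, the 3 genes most like Nrgn, and Tnfrsf12a and Fas as label checks. Results of 2 genes of the pathway list are not reported here, and the list is counted without them. The Fas probe was well above background in 1 of 4 MRL/lpr, 4 of 4 Fn14ko and 2 of 4 MRL/+ mice, and the Tnfrsf12a probe in 2, 4 and 4. The sample descriptions also mention cortex, whereas source and tissue give hippocampus. Nothing in the labels ties mice of different phenotypes together. Precision is set by signal over background and by the number of arrays, 2 per phenotype.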

Additional observations from a re-analysis of the deposited data

Results flagged for a closer look

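Among 37 sets of 4 mice (a member probe in a phenotype), 1 had a mouse far from the other 3, where chance alone marks about 1 in 20 sets. Calm2 probe A_55_P2129234 read 29.3 in MRL/lpr mouse 1, compared with 49.6 to 51.5 in the other MRL/lpr mice, and the gap was 0.913 of the range of the 4. Mouse 1 was labelled with Cy3, as was mouse 3 at 50.7. The cause was not tested.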

How the results depend on the processing

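Of the member and whole-array results, the medians over the member probes moved by more than 1 SD of the mice under 1 alternative, keeping all spots without a filter, where they were -1.17 for MRL/lpr versus MRL/+, -1.52 for MRL/lpr versus Fn14ko and 0.56 for Fn14ko versus MRL/+, and leaving out 1 mouse gave -0.80 to -0.30, -0.54 to 0.04 and -0.39 to -0.23. In the same order of comparisons, the probes called (954, 363 and 76) became 481, 120 and 0 with quantile normalization (1202 at an unadjusted p under 0.05 in the last), 369, 3714 and 0 (3582) with no filter, 9, 3 and 0 (371) with the array as a random block (estimated correlation 0.706), 1829, 659 and 2999 without the weak array on the same spots, and 3974, 1983 and 5734 on spots kept in 10 mice. The Agilent processed signal gave 701 for MRL/lpr versus Fn14ko, and leaving out the dye 47 for Fn14ko versus MRL/+. The methods' t-test gave 477, 351 and 619 with their ratio threshold, and 0, 0 and 9 after Benjamini-Hochberg adjustment (1646, 1366 and 1769 unadjusted). Leaving out 1 mouse gave 163 to 4034, 32 to 4940 and 0 to 144. In the first comparison the count rose to 3937 and 4034 without MRL/lpr mouse 1 or 2 and dropped to between 163 and 481 without any other mouse except Fn14ko mouse 3. In the second it rose to 4109 and 4940 without the same MRL/lpr mice and dropped to between 32 and 159 without any other. In the third it rose to 128 and 144 without MRL/lpr mouse 3 or 4 and dropped to between 0 and 35 without any Fn14ko or MRL/+ mouse.

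Member probes called (1, 0 and 0) became 0, 2 and 0 with no filter, 2, 1 and 2 without the weak array on the same spots and 5, 2 and 4 on spots kept in 10 mice. They were 0 in the first comparison with the random block and after Benjamini-Hochberg adjustment of the methods' t-test, and 1 in the last with its ratio threshold. Leaving out 1 mouse gave 0 to 4, 0 to 2 and 0 to 1. The counts of member probes changed in the first comparison to 3 without MRL/lpr mouse 1 and 4 without mouse 2, and to 0 without MRL/+ mouse 2 or 4. In the second they changed to 2 without MRL/lpr mouse 1 and 1 without mouse 2, and in the third to 1 without MRL/lpr mouse 4. Of 621 alternative values of single member probes, 571 moved by less than the spread of the mice, 50 by more, and 0 reversed a call. With 1, 0 and 0 member probes called, few of these values could reverse a call. Uncalled differences could change sign, and that of Ppp3ca between MRL/lpr and MRL/+ ran from -0.36 to 0.81. The Nrgn difference between the same phenotypes stayed negative (-3.0 to -1.48). Pathway probes called (3, 4 and 0) ran from 1 to 14, 0 to 20 and 0 to 0 when 1 mouse was left out, and of 63 alternative counts of them 34 moved by over 1.5 times.

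Replicate numbers are shared between phenotypes, but same-numbered mice did not deviate together (r from -0.63 to 0.36 over 12 pairs, 3 of them over 0.1). With the replicate block 637, 186 and 9 probes were called, and 1, 0 and 0 member probes. The pathway calls of Camkk2 relative to Fn14ko and Camk2n1 relative to MRL/+ were lost with it (limma adjusted p = 0.057 and 0.059), and the other 5 were kept. The fits within 1 dye were chosen after seeing the data. Signal over background in the weak array limits every value of MRL/lpr, and leaving it out leaves 1 array in that phenotype, with its 2 mice assumed to vary like the others. The causes of these moves were not tested.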
